A study of Saccharomyces cerevisiae with 19 samples.

Results

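The termination genes described here are NRD1, NAB3 and SEN1, which encode the Nrd1-Nab3-Sen1 complex, and RAT1, RAI1 and RTT103, which encode the exonuclease pathway at polyadenylation sites. They are the 6 rows with these names in both deposited count tables of Saccharomyces cerevisiae, out of 6409 named features, and all 6 passed the filter on low counts. Transcripts were sequenced in 5 strains with 3 biological replicates each. The libraries labelled ΔPcf11 come from a strain in which, per the labels, the gene of the 3' end processing factor Pcf11 was deleted. Pcf11-AARR carries 4 substitutions in Pcf11 (Y575A, E577R, E578R and W582A). Pcf11-OE1 and Pcf11-OE2 overexpress Pcf11 from a strong pair of promoter and terminator (TEF1p and GRS1t) or a weak pair (CDC60p and DITIt, as labelled), and the labels do not say which pair belongs to which strain. WT carries none of these changes. All libraries share a time of 36 h and name S288C and CEN.PK2-1C together. A further 2 immunoprecipitations (IP) and 2 inputs of overexpressed Flag-tagged Pcf11 were made by CLIP, in which RNA crosslinked to a protein is pulled down with it and sequenced. The genotype label of the inputs reads WT, while PCF11 stood at 593.19 and 615.51 FPKM there, above 99.1% of genes in the second.

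RNA polymerase II in yeast stops by either of these routes. Nrd1 and Nab3 bind short motifs in nascent RNA and, with the helicase Sen1, end the transcription of small nucleolar RNAs and unstable noncoding RNAs, and attenuate some messenger RNA genes, NRD1 itself among them. At messenger RNA genes the cleavage factors, Pcf11 included, cut the transcript at the polyadenylation site, and Rat1 with its partners degrades the RNA that remains attached to the polymerase.

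Total counts were 26211192 to 46296634 per RNA-seq library, and the members had 730 (RAI1, WT replicate 1) to 48387 reads (NAB3, Pcf11-OE2 replicate 2) in single libraries. The 3 WT libraries serve every comparison with WT. Levels are CPM, the counts scaled to the depth of the library and by TMM, which aligns libraries on the bulk of their genes, and a gene was called where the edgeR p, adjusted over all 6147 features tested, was below 0.05. The libraries labelled ΔPcf11 were not free of PCF11 reads: they had 12.2, 13.97 and 12.8 CPM, against 17.7, 13.9 and 14.1 CPM in WT, and the difference was not called (edgeR adjusted p = 0.129), though it was in a fit for each count table (-0.30, adjusted p = 0.0456). SIR4 overlaps 28.1% of PCF11 on the opposite strand and was called higher in the libraries labelled ΔPcf11 than in WT (log2 0.55, edgeR adjusted p = 7.07e-05). It was also called higher than WT in Pcf11-AARR (log2 0.29), Pcf11-OE1 (1.85) and Pcf11-OE2 (0.86). If SIR4 reads were even and also counted for PCF11, they would equal 63.5% of the PCF11 counts in the libraries labelled ΔPcf11, against 37.0% in WT. What part of the PCF11 counts comes from SIR4 was not tested, so these counts do not settle the label of a deletion; ΔPcf11 below stands for the libraries labelled ΔPcf11, whose directions all rest on that label. PCF11 averaged 21.2 ± 1.22 CPM for Pcf11-AARR, 589.8 ± 33.0 CPM for Pcf11-OE1 and 76.2 ± 11.7 CPM for Pcf11-OE2 (SD, n = 3 each). Mapped shares were 56.4% to 61.9% in the libraries labelled ΔPcf11, 49.9% to 91.6% in Pcf11-AARR and 83.6% to 95.3% in WT. Reads that the authors assigned to 5' untranslated regions made up 0.19% to 0.21%, 0.11% to 0.14% and 0.45% to 0.55% of reads in these strains, each library of these 2 altered strains below every WT library, and the part of both measures in the results was not tested. The label CEN.PK2-1C names a MATa strain: 5 genes of a cells summed to 365 to 575 CPM in the libraries of ΔPcf11, 250 to 332 CPM for Pcf11-AARR, 340 to 512 CPM for Pcf11-OE1 and 491 to 598 CPM for Pcf11-OE2, against 213 to 240 CPM in WT, and 3 genes of alpha cells to 81.2 to 90.2, 77.8 to 82.4, 66.0 to 80.8 and 71.8 to 82.9 CPM, against 60.9 to 71.0 CPM in WT, with no marker at 0. The sums of the a-cell genes hide unlike members. MFA1, a gene of the a-factor pheromone, averaged 234 CPM for ΔPcf11, 134 for Pcf11-AARR, 185 for Pcf11-OE1 and 210 for Pcf11-OE2, against 197 CPM in WT, while MFA2, the other a-factor gene, averaged 200, 90.7, 165 and 232 CPM, against 6.37 CPM in WT. STE2, the receptor for alpha factor, averaged 19.8, 19.2, 26.0 and 30.0 CPM in these strains, against 2.08 CPM in WT. MFA2, STE2, STE6 and BAR1 of the a-cell genes, and STE3 of the alpha-cell genes, were lower in every WT library than in every altered library. Their part in the results was not tested. Whether the strains were sequenced together is not stated, so strain and sequencing run cannot be told apart. Per bulk culture, a change in RNA per cell and a change in the mix of cells cannot be told apart either.

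RAT1 and NRD1 were higher than WT in every altered strain, and highest in both overexpression strains. NAB3 was lower than WT in Pcf11-AARR and the libraries labelled ΔPcf11 and higher in Pcf11-OE1 and Pcf11-OE2. SEN1 was called lower in Pcf11-AARR and the libraries labelled ΔPcf11, RTT103 lower in Pcf11-AARR and both overexpression strains, and RAI1 higher in Pcf11-AARR. With counts scaled by library totals alone the falls of NAB3 in ΔPcf11 and of NAB3, SEN1 and RTT103 in Pcf11-AARR were not called, and SEN1 in both overexpression strains and RAI1 in Pcf11-OE1 were called higher.

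Of the 6 members, 2 were called higher and 2 lower in ΔPcf11 against WT, where 34.8% of all features were higher and 29.1% lower, 63.9% in either direction. In Pcf11-AARR against WT 3 members were higher and 3 lower, beside 33.8% and 30.4% of all features, 64.1% in either direction. Pcf11-OE1 against WT had 3 members higher and 1 lower, beside 36.0% and 32.1% of all features (68.1% in either direction), and Pcf11-OE2 against WT had the same counts beside 34.0% and 31.1% (65.1% in either direction). All 6 members were thus called in Pcf11-AARR and 4 in each of the other strains; beside the shares of all features, counts over 6 members are not read as setting them apart. The median log2 fold change of the members against WT was -0.03 for ΔPcf11, 0.04 for Pcf11-AARR, 0.29 for Pcf11-OE1 and 0.42 for Pcf11-OE2, and that of all features lay between 0.02 and 0.07. Between altered strains, Pcf11-AARR against ΔPcf11 had 2 members higher and 1 lower, beside 18.8% and 21.8% of all features (40.6% in either direction). Each overexpression strain had 4 members higher and 1 lower than ΔPcf11, beside 31.1% and 29.0% of all features for Pcf11-OE1 (60.1% in either direction) and 28.8% and 28.4% for Pcf11-OE2 (57.2%). Against Pcf11-AARR they also had 4 higher and 1 lower each, beside 26.0% and 24.1% for Pcf11-OE1 (50.2%) and 25.0% and 23.6% for Pcf11-OE2 (48.6%). In Pcf11-OE2 against Pcf11-OE1, edgeR and DESeq2 each called 0 members, and 0 had an unadjusted edgeR p below 0.05, where 0.26% of all features were higher and 1.29% lower, 1.55% in either direction. With 3 libraries against 3 the smallest exact two-sided permutation p is 0.1.

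**Figure D1:**
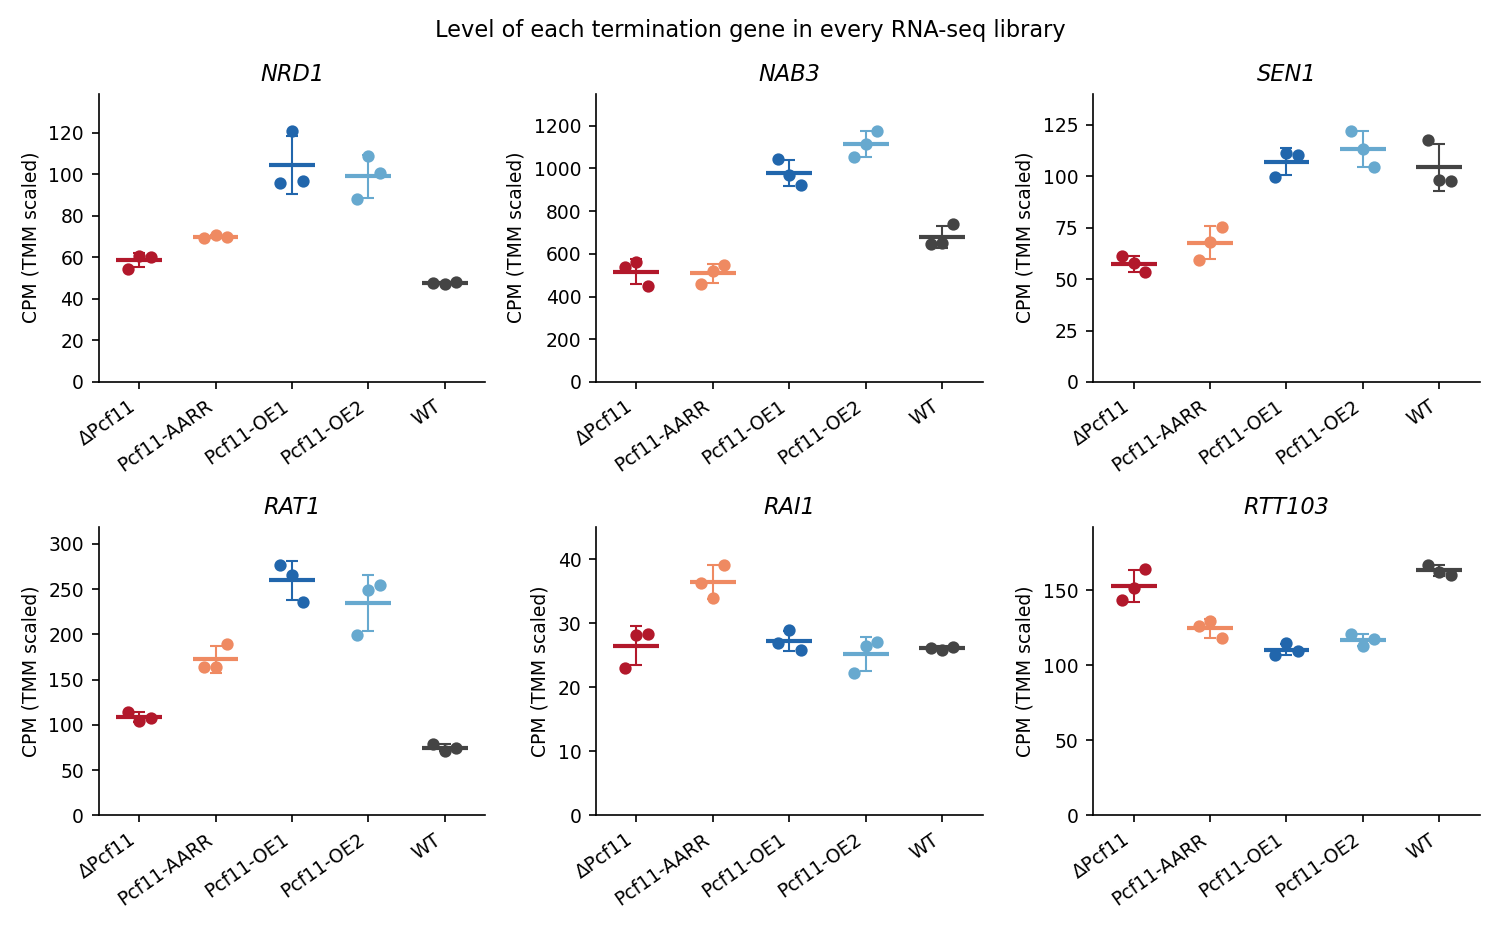
CPM of the 6 members in each of the 15 libraries (points), with the mean (wide line) and SD (whiskers) of each strain, each panel on its own linear axis from 0. RAT1 averages 259.6 CPM in Pcf11-OE1, against 74.7 CPM in WT, while RAI1 stays between 22.2 and 29.0 CPM in every library outside Pcf11-AARR.

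**Figure D2:**
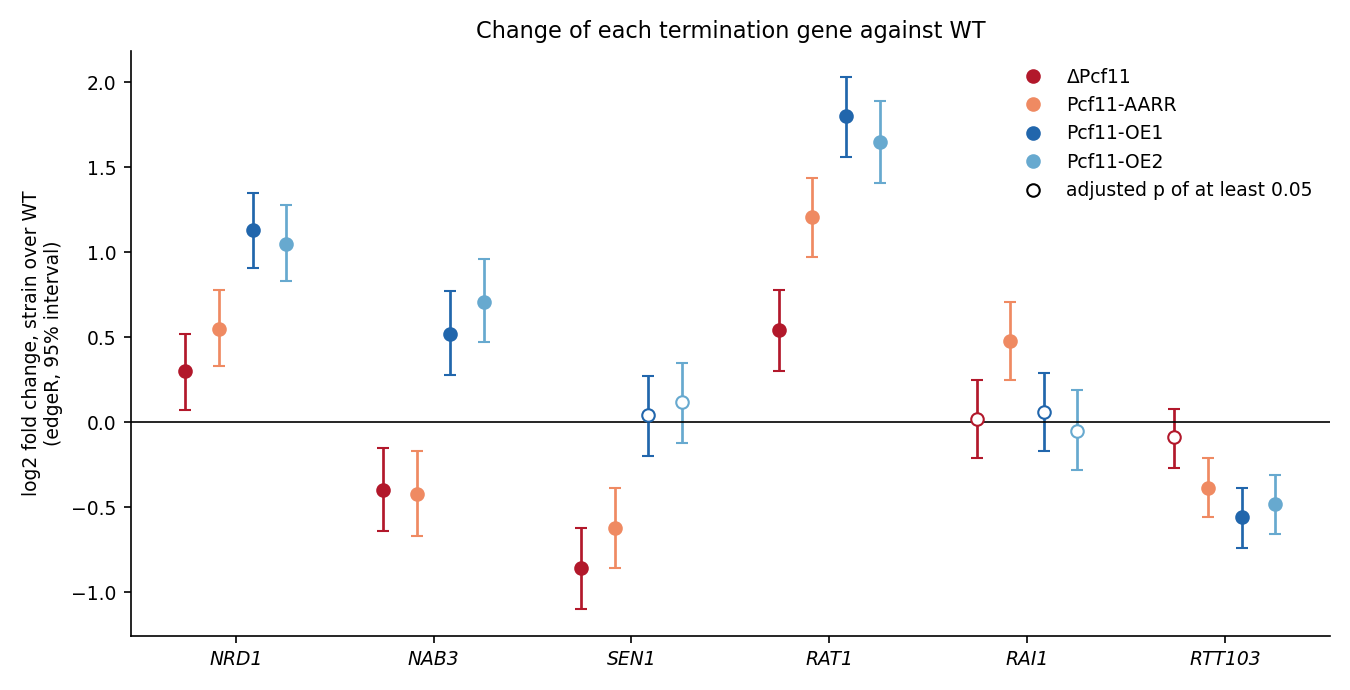
Log2 fold change of each member against WT from edgeR with its 95% interval, by strain (colours); open circles mark values with an adjusted p of at least 0.05. RAT1 has the highest value in each of the 4 strains, up to 1.80 in Pcf11-OE1, and SEN1 the lowest value shown, -0.86 in ΔPcf11.

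NRD1 (YNL251C), which encodes the RNA-binding subunit that also contacts the tail of the polymerase, lies on the minus strand of chromosome XIV, bases 172094 to 174315 of assembly R64. It had 54.6, 60.8 and 60.1 CPM in the libraries labelled ΔPcf11 and 69.3, 70.5 and 69.9 CPM in Pcf11-AARR. It had 95.7, 120.7 and 96.7 CPM in Pcf11-OE1 and 87.9, 108.5 and 100.5 CPM in Pcf11-OE2, against 47.8, 47.0 and 48.2 CPM in WT. Every library of the altered strains was above every WT library, and both overexpression strains were above ΔPcf11 and Pcf11-AARR. The log2 fold change against WT was 0.30 ± 0.11 (SE) in ΔPcf11 and 0.55 ± 0.10 in Pcf11-AARR (edgeR adjusted p = 0.0234 and 3.40e-04). It was 1.13 ± 0.10 in Pcf11-OE1 and 1.05 ± 0.10 in Pcf11-OE2 (edgeR adjusted p = 3.79e-07 and 8.93e-07). Above ΔPcf11, Pcf11-OE1 stood by 0.84 and Pcf11-OE2 by 0.76, and above Pcf11-AARR by 0.58 and 0.50, all called. In the order of levels, Pcf11-OE1 and Pcf11-OE2 did not differ beyond their spread (log2 difference, Pcf11-OE2 minus Pcf11-OE1, -0.08, 95% interval -0.30 to 0.15). Pcf11-AARR stood 0.26 above ΔPcf11 on the log2 scale (95% interval 0.03 to 0.48), which was not called (edgeR adjusted p = 0.0617) although the libraries did not overlap. The call of NRD1 in ΔPcf11 was lost without ΔPcf11 replicate 2 or 3 or WT replicate 1 or 2, with adjusted p from 0.0522 to 0.0694 there, and Pcf11-AARR minus ΔPcf11 was called in a fit for each count table (adjusted p = 0.0126).

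The feature counted for NRD1 shares its last 193 bases, past the stop codon, with MRPL17, a gene for a mitochondrial ribosomal protein on the same strand. MRPL17 rose with NRD1: it averaged 101 CPM for ΔPcf11, 123 for Pcf11-AARR, 155 for Pcf11-OE1 and 159 for Pcf11-OE2, against 78.2 CPM in WT. Its log2 fold change against WT was 0.37, 0.65, 0.98 and 1.02 in this order of strains, all called. If the reads of MRPL17 were even along it and also counted for NRD1, they would make up 22.6% to 26.8% of the NRD1 counts in the 5 strains. The part of MRPL17 reads in the rise of NRD1 was not tested.

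In the first IP a Pcf11 peak covered the start of the NRD1 gene on its own strand, from 189 bases before the first base of the start codon to 115 bases into the coding sequence, with 13 reads and a height of 11 (reads and heights of peaks are the authors' values), above 48.6% of the peaks of that library by height. Its summit lay 28 bases before the start codon, and the second IP had no peak there. The 30 bases around the summit are shown because NRD1 is the member known to be controlled by its own complex. Capitals in this and the following sequences mark letters of the core motifs of Nrd1 (GTAA or GTAG) and Nab3 (TCTT), searched on the strand of the peak.
NRD1, IP 1, sense, chrXIV:174329-174358, minus strand of R64: aggaaaggaaccggaaagcaacaaacatac
These 30 bases held no match to either motif. Among 30-base windows around all peak summits of the first IP, 14.3% held an Nrd1 match and 13.7% a Nab3 match. The whole 304 bases of the peak held 2 Nrd1 matches and 1 Nab3 match, and 62.0% and 81.7% of the windows placed likewise on 6026 coding genes held at least as many.

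NAB3 (YPL190C) encodes the second RNA-binding subunit and lies on chromosome XVI, bases 184888 to 187725, minus strand, where no other feature overlaps it. It had 536.9, 561.2 and 451.4 CPM in the libraries labelled ΔPcf11 and 459.5, 517.7 and 549.7 CPM in Pcf11-AARR. It had 1043, 969 and 920.4 CPM in Pcf11-OE1 and 1056, 1113 and 1175 CPM in Pcf11-OE2, against 645.6, 652.3 and 740.2 CPM in WT. The WT libraries thus lay above all 6 libraries of ΔPcf11 and Pcf11-AARR and below all 6 of the overexpression strains. Against WT the log2 fold change was -0.40 ± 0.12 (SE) in ΔPcf11 and -0.42 ± 0.12 in Pcf11-AARR (edgeR adjusted p = 0.00832 and 0.00593). It was 0.52 ± 0.12 in Pcf11-OE1 and 0.71 ± 0.12 in Pcf11-OE2 (edgeR adjusted p = 0.00107 and 9.45e-05). The overexpression strains stood above ΔPcf11 by 0.92 in Pcf11-OE1 and 1.11 in Pcf11-OE2, and above Pcf11-AARR by 0.94 and 1.13, all called. Pcf11-OE2 minus Pcf11-OE1 was 0.19 (95% interval -0.06 to 0.44) with libraries that did not overlap, and Pcf11-AARR minus ΔPcf11 was -0.02 (95% interval -0.27 to 0.23). With counts scaled by library totals alone, which moved the median of all features against WT to 0.20 in ΔPcf11 and 0.41 in Pcf11-AARR, the fall was -0.27 and -0.06 and was not called (edgeR adjusted p = 0.0802 and 0.695).

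On the strand opposite to NAB3 the first IP had a peak of 387 bases with 11 reads inside the coding sequence, its summit 358 bases from the start codon and its height of 6 above 18.9% of peaks. It is shown for its repeated Nab3 motif.
NAB3, IP 1, antisense, chrXVI:187337-187397, plus strand of R64: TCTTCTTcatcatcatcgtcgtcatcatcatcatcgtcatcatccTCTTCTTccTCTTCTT
The 61 bases held 6 matches to TCTT, counting those that share a base, and 0 to the Nrd1 motifs. This window is longer than the 30 bases shown for NRD1, and every match lies in its outer parts. The 30 bases around the NAB3 summit hold no match to either motif. Of the 1332 windows of 61 bases around the summits of the first IP, 28.9% held a Nab3 match and 6 windows held at least 6. Read on the other strand, these bases are coding sequence of NAB3. The input had 19 antisense and 507 sense reads on the gene in the first library, and 12 antisense and 425 sense reads in the second.

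SEN1 (YLR430W), which encodes the helicase that unwinds RNA from DNA and releases the polymerase, lies on chromosome XII, bases 993434 to 1000556, plus strand. It had 61.2, 57.8 and 53.4 CPM in the libraries labelled ΔPcf11 and 59.5, 68.3 and 75.4 CPM in Pcf11-AARR. It had 99.8, 111.5 and 110.2 CPM in Pcf11-OE1 and 122.0, 113.5 and 104.5 CPM in Pcf11-OE2, against 117.5, 98.1 and 97.6 CPM in WT. The 6 libraries of ΔPcf11 and Pcf11-AARR lay below all others, and the overexpression strains overlapped WT. The log2 fold change against WT was -0.86 ± 0.11 (SE) in ΔPcf11 and -0.62 ± 0.11 in Pcf11-AARR (edgeR adjusted p = 1.26e-05 and 1.96e-04). In Pcf11-OE1 it was 0.04 (95% interval -0.20 to 0.27) and in Pcf11-OE2 0.12 (95% interval -0.12 to 0.35), neither called. Both overexpression strains were above ΔPcf11, by 0.90 and 0.98, and above Pcf11-AARR, by 0.66 and 0.74 on the log2 scale (edgeR adjusted p of at most 2.50e-04). Pcf11-AARR minus ΔPcf11 was 0.24 (95% interval 0.00 to 0.48) and not called (edgeR adjusted p = 0.0999), but was called without Pcf11-AARR replicate 1 (0.32, adjusted p = 0.046).

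The end of SEN1 lies opposite ATG23, an autophagy gene, with 684 shared bases, 257 of them coding in SEN1, and the strand setting of the count is not given in the sources used here. ATG23 averaged 157 CPM for ΔPcf11, 111 for Pcf11-AARR, 106 for Pcf11-OE1 and 108 for Pcf11-OE2, against 261 CPM in WT, and its log2 fold change against WT was -0.74, -1.23, -1.31 and -1.27 in this order of strains, all called. If ATG23 reads were even and also counted for SEN1, they would equal 102% of the SEN1 counts in ΔPcf11, 61.5% in Pcf11-AARR, 36.7% in Pcf11-OE1, 35.2% in Pcf11-OE2 and 93.9% in WT. The figure for ΔPcf11 exceeds all SEN1 counts there, so the shared reads in ΔPcf11 must be fewer than supposed. How many reads are shared was not tested. The level of SEN1 is uncertain, and the part of ATG23 reads in its fall was not tested. With library totals alone SEN1 was at -0.26 in Pcf11-AARR (edgeR adjusted p = 0.0619), and at 0.34 in Pcf11-OE1 and 0.38 in Pcf11-OE2, both called (edgeR adjusted p = 0.0194 and 0.0101).

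Pcf11 peaks on the sense strand of SEN1 numbered 3, all in the second IP and all with summits in the coding sequence, at 2137, 5732 and 6620 bases from the start codon. They held 44, 97 and 25 reads and had heights of 16, 15 and 17, above 58.2%, 55.1% and 61.0% of the peaks of that library. The last lay 75 bases before the stop codon, inside the stretch shared with ATG23, and is shown with the first because each holds 1 Nrd1 match.
SEN1, IP 2, sense, summit 2137, chrXII:995541-995601, plus strand of R64: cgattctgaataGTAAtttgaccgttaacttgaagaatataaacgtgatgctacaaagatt
SEN1, IP 2, sense, summit 6620, chrXII:1000024-1000084, plus strand of R64: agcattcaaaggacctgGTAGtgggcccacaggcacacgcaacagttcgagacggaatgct
An Nrd1 match stood in 30.6% of the 1707 windows of 61 bases around the summits of the second IP. Within the 30 bases around the summit, the length shown for NRD1, summit 6620 keeps its match and summit 2137 does not. The CLIP inputs, counted by strand, had 562 and 529 sense reads on SEN1 and 1 and 6 antisense reads.

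RAT1 (YOR048C), which encodes the nuclear exonuclease that degrades RNA from its 5' end, lies on chromosome XV, bases 418158 to 421650, minus strand, and no other feature overlaps it. It had 114.6, 104.0 and 107.1 CPM in the libraries labelled ΔPcf11 and 164.2, 163.7 and 189.2 CPM in Pcf11-AARR. It had 277.1, 266.1 and 235.6 CPM in Pcf11-OE1 and 199.1, 249.5 and 255.1 CPM in Pcf11-OE2, against 78.6, 70.7 and 74.9 CPM in WT. The strains fell into separate ranges in descending order: Pcf11-OE1 with Pcf11-OE2, then Pcf11-AARR, ΔPcf11 and WT, with the overexpression strains overlapping only each other. The log2 fold change against WT was 0.54 ± 0.11 (SE) in ΔPcf11 and 1.21 ± 0.11 in Pcf11-AARR, or 1.45-fold and 2.31-fold (edgeR adjusted p = 7.07e-04 and 4.50e-07). It was 1.80 ± 0.11 in Pcf11-OE1 and 1.65 ± 0.11 in Pcf11-OE2, or 3.47-fold and 3.14-fold (edgeR adjusted p = 8.32e-09 and 1.98e-08). Of all features tested, 73.0% had a lower log2 fold change than RAT1 for ΔPcf11, 91.2% for Pcf11-AARR, 96.2% for Pcf11-OE1 and 96.0% for Pcf11-OE2.

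Each step in that order of RAT1 levels was called except the first. Pcf11-OE2 minus Pcf11-OE1 was -0.15 (95% interval -0.38 to 0.09). Pcf11-OE2 minus Pcf11-AARR was 0.44 and Pcf11-AARR minus ΔPcf11 was 0.67 (edgeR adjusted p = 0.00445 and 4.09e-04). The call of Pcf11-OE2 over Pcf11-AARR was lost without Pcf11-OE2 replicate 3, at 0.34 (edgeR adjusted p = 0.0517). Across the alternative scalings, tests and fits, RAT1 against WT ran from 0.47 to 0.67 for ΔPcf11, 1.17 to 1.57 for Pcf11-AARR, 1.75 to 2.09 for Pcf11-OE1 and 1.63 to 1.92 for Pcf11-OE2, and each was called. PCF11 itself averaged 76.2 CPM in Pcf11-OE2 and 589.8 CPM in Pcf11-OE1, while RAT1 averaged 234.6 ± 30.8 and 259.6 ± 21.5 CPM there (SD, n = 3 each).

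RAT1 was the member with peaks in both IPs at 1 place, on the strand opposite to the gene and past its stop codon. The summits lay 372 bases after the stop codon in the first IP and 350 bases after it in the second, in peaks of 208 and 243 bases with 7 reads each. Their height of 7 was above 25.7% and 23.0% of the peaks of their libraries. The bases around both summits are shown with the strand of the peak, and they overlap.
RAT1, IP 1, antisense, chrXV:418244-418273, plus strand of R64: tttaggaacttagaaaaaaaagGTAGtgcc
RAT1, IP 2, antisense, chrXV:418266-418295, plus strand of R64: GTAGtgccgtattcgaaactttcgccgtgg
Both windows hold the same Nrd1 match, GTAG, and 14.3% and 15.4% of the 30-base summit windows of the first and second IP held an Nrd1 match. Of the inputs, the first had 21 antisense and 414 sense reads on RAT1 and the second 28 antisense and 349 sense reads, 4.83% and 7.43% antisense, the highest shares among the members. On the sense strand the first IP had a RAT1 peak of 1280 bases with 38 reads and a height of 13, above 56.5% of peaks, with its summit 1413 bases into the coding sequence.

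RAI1 (YGL246C), which encodes the partner that stimulates Rat1 and removes faulty 5' ends, lies on chromosome VII, bases 37175 to 38780, minus strand. It had 23.0, 28.2 and 28.3 CPM in the libraries labelled ΔPcf11 and 36.3, 33.9 and 39.2 CPM in Pcf11-AARR. It had 27.0, 29.0 and 25.8 CPM in Pcf11-OE1 and 22.2, 26.5 and 27.1 CPM in Pcf11-OE2, against 26.2, 25.8 and 26.3 CPM in WT. The Pcf11-AARR libraries were the highest and overlapped no other strain. Their log2 fold change was 0.48 ± 0.11 (SE) against WT and 0.46 ± 0.11 against ΔPcf11 (edgeR adjusted p = 0.00128 and 0.0042). Pcf11-OE1 and Pcf11-OE2 were below Pcf11-AARR, by -0.42 and -0.53 (edgeR adjusted p = 0.00512 and 0.00117). Against WT, the value was 0.02 (95% interval -0.21 to 0.25) in ΔPcf11, 0.06 (-0.17 to 0.29) in Pcf11-OE1 and -0.05 (-0.28 to 0.19) in Pcf11-OE2, none called. Other features cover 50.6% of the bases counted for RAI1: BRR6 shares 812 and PDE1 76 of its bases, both on the opposite strand. PDE1, a phosphodiesterase gene, averaged 225 CPM for ΔPcf11, 314 for Pcf11-AARR, 211 for Pcf11-OE1 and 274 for Pcf11-OE2, against 111 CPM in WT, and BRR6, a nuclear envelope gene, averaged 28.3, 32.3, 29.2 and 29.0 CPM, against 26.1 CPM in WT. If even and also counted for RAI1, PDE1 reads would equal 40.3%, 40.6%, 36.9% and 51.4% of its counts in these strains, against 20.1% in WT, and BRR6 reads 81.7%, 68.6%, 82.8% and 88.2%, against 76.9% in WT. Their part in the RAI1 values was not tested. With library totals alone RAI1 was called higher in Pcf11-OE1 (0.36, edgeR adjusted p = 0.0179). RAI1 had 0 antisense reads in both CLIP inputs and no Pcf11 peak on either strand.

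RTT103 (YDR289C), which encodes a protein that binds the phosphorylated tail of the polymerase and brings in Rat1 and Rai1, spans bases 1037834 to 1039509 of the minus strand of chromosome IV. It had 143.3, 151.6 and 164.3 CPM in the libraries labelled ΔPcf11 and 126.2, 129.8 and 117.9 CPM in Pcf11-AARR. It had 107.2, 114.7 and 109.5 CPM in Pcf11-OE1 and 120.6, 112.8 and 117.3 CPM in Pcf11-OE2, against 167.1, 162.5 and 160.0 CPM in WT. ΔPcf11 overlapped WT, and the other altered strains lay below both. The log2 fold change against WT was -0.09 ± 0.08 (SE) in ΔPcf11 (95% interval -0.27 to 0.08), not called, and -0.39 ± 0.08 in Pcf11-AARR (edgeR adjusted p = 8.21e-04). It was -0.56 ± 0.08 in Pcf11-OE1 and -0.48 ± 0.08 in Pcf11-OE2 (edgeR adjusted p = 2.87e-05 and 1.38e-04). Pcf11-AARR minus ΔPcf11 was -0.30 and called (edgeR adjusted p = 0.0111), a call lost without ΔPcf11 replicate 3, with only these strains in the fit, or with library totals alone (adjusted p = 0.0598, 0.0673 and 0.558). With library totals alone the value against WT was 0.04 in ΔPcf11 and -0.03 in Pcf11-AARR, neither called (edgeR adjusted p = 0.74 and 0.762), and it was -0.27 in Pcf11-OE1 and -0.22 in Pcf11-OE2, both called (edgeR adjusted p = 0.0154 and 0.042). Pcf11-OE1 minus Pcf11-AARR was -0.17 (95% interval -0.35 to 0.00) and not called (edgeR adjusted p = 0.0911), but was called with DESeq2 (-0.19, adjusted p = 0.0171) and with library totals (-0.23, edgeR adjusted p = 0.043). The feature shares 679 bases, 40.5% of its length, with NSE3 on the opposite strand. NSE3, a gene of the Smc5-Smc6 complex, averaged 94.2 CPM for ΔPcf11, 77.3 for Pcf11-AARR, 44.3 for Pcf11-OE1 and 46.2 for Pcf11-OE2, against 94.0 CPM in WT. Even reads of NSE3 would equal 31.4%, 31.5%, 20.7% and 20.4% of the RTT103 counts in these strains, against 29.5% in WT, and their part in the fall of RTT103 was not tested. RTT103 had no Pcf11 peak on either strand.

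**Figure D3:**
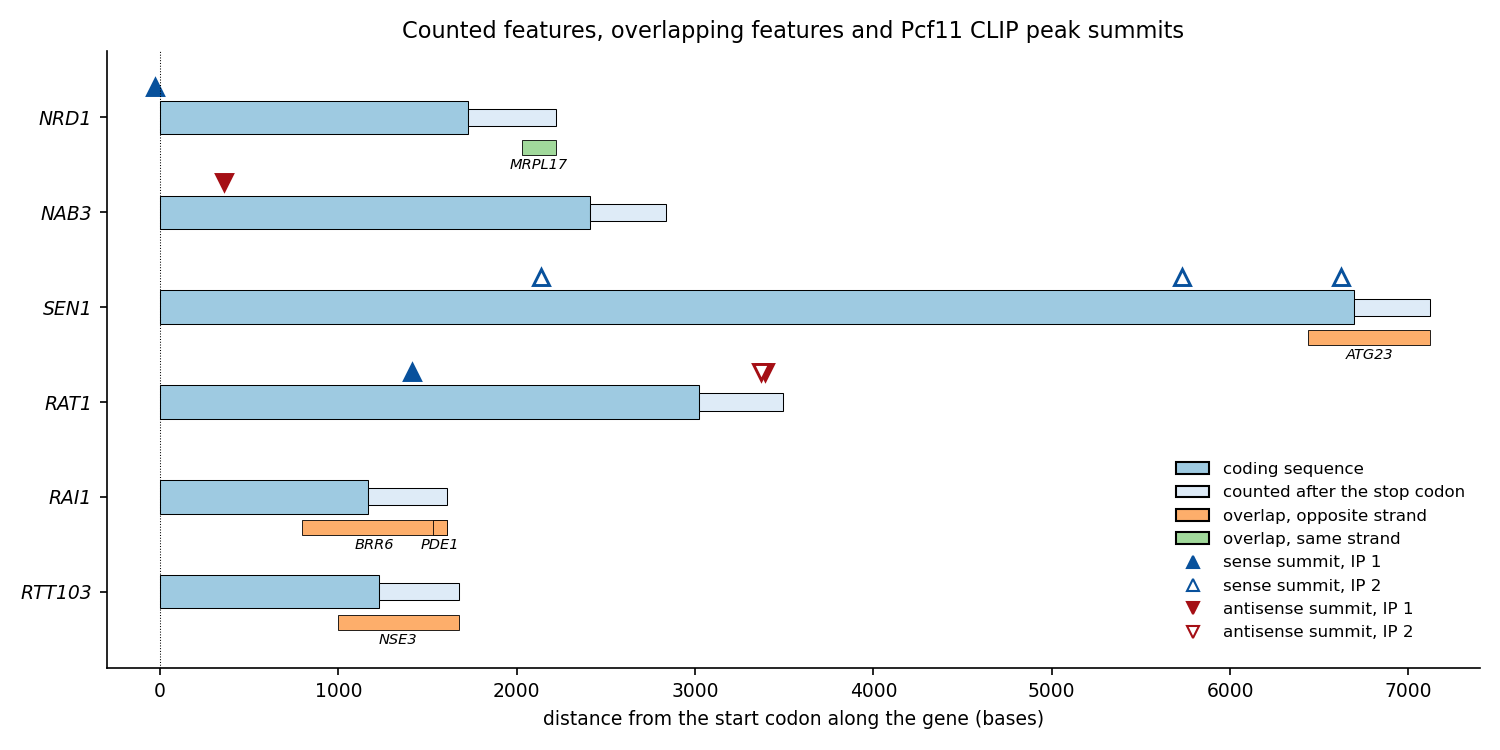
Counted feature of each member along the gene, in bases from the first base of the start codon, with the coding sequence (thick) and the counted part after the stop codon (thin), the stretches shared with other features below, and the summits of Pcf11 CLIP peaks above. RAT1 and NAB3 overlap nothing, RAI1 and RTT103 share 812 and 679 bases with a gene on the opposite strand, and the antisense summits of RAT1 in both IPs lie side by side past its stop codon.

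Over both IPs, 2 members had a sense peak in the first IP and 1 in the second, where 996 and 1233 of 5853 features had one, and no member had a sense peak in both. Antisense peaks stood on 2 members in the first IP and on 1 in the second, against 9.29% and 13.5% of all features. The CLIP libraries have no untagged control here, so these peaks are a description with no test. In the inputs NAB3 had the highest level of the members, 149.78 and 133.88 FPKM in the authors' values, and RAI1 the lowest, 50.12 and 46.2 FPKM. The start windows of the members, 250 bases before to 50 after the first base of the start codon, held 1 to 5 Nrd1 matches and 2 to 4 Nab3 matches on the sense strand. Of 6026 such windows in the genome, 88.4% held an Nrd1 match and 85.2% a Nab3 match. RAI1 had the most of both, with 5 and 4, and 8.21% and 20.1% of windows held at least as many.

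The balance between partners was compared within each library by level per length (TPM), the count per base of feature as a share of the library, and a ratio of 2 genes within a library does not depend on how libraries are scaled. In WT, NAB3 was at 273.6 ± 26.6 TPM, above 90.4% of all named features, while NRD1 was at 24.5 ± 0.687 TPM and SEN1 at 16.7 ± 1.42 TPM (SD, n = 3). RTT103 was at 111.2 ± 0.318 TPM in WT, and RAT1 at 24.4 ± 0.995 and RAI1 at 18.6 ± 0.468 TPM. NAB3 and RTT103 thus had the highest WT level per length in their groups of 3.

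RAI1 stood at 0.533 ± 0.0845 of RAT1 for ΔPcf11, 0.46 ± 0.0176 for Pcf11-AARR, 0.229 ± 0.0149 for Pcf11-OE1 and 0.235 ± 0.00692 for Pcf11-OE2, against 0.761 ± 0.0338 in WT (SD, n = 3 each). RTT103 stood at 2.95 ± 0.305 times RAT1 for ΔPcf11, 1.52 ± 0.191 for Pcf11-AARR, 0.891 ± 0.0815 for Pcf11-OE1 and 1.05 ± 0.18 for Pcf11-OE2, against 4.56 ± 0.202 in WT. Relative to RAT1, both partners were thus lower in every library of the altered strains than in every WT library, with the lowest means in the overexpression strains. SEN1 stood at 0.308 ± 0.0375 of NRD1 for ΔPcf11, 0.302 ± 0.0344 for Pcf11-AARR, 0.323 ± 0.0338 for Pcf11-OE1 and 0.361 ± 0.0622 for Pcf11-OE2, against 0.683 ± 0.0729 in WT. NRD1 over NAB3 was 0.146 ± 0.0212 for ΔPcf11, 0.176 ± 0.0153 for Pcf11-AARR, 0.137 ± 0.021 for Pcf11-OE1 and 0.113 ± 0.0098 for Pcf11-OE2, against 0.0899 ± 0.00598 in WT. For all 16 ratios against WT the libraries of the strains did not overlap, and neither did 69.1% for ΔPcf11, 70.8% for Pcf11-AARR, 72.9% for Pcf11-OE1 and 70.6% for Pcf11-OE2 of the ratios between all 18528828 pairs of features with reads in every library, so the absence of overlap does not set these ratios apart. They had an exact two-sided permutation p of 0.1 each, the smallest that the design allows, so none can pass 0.05 by this test. The ratios carry the overlaps of SEN1, RAI1 and RTT103 given above.

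**Figure D4:**
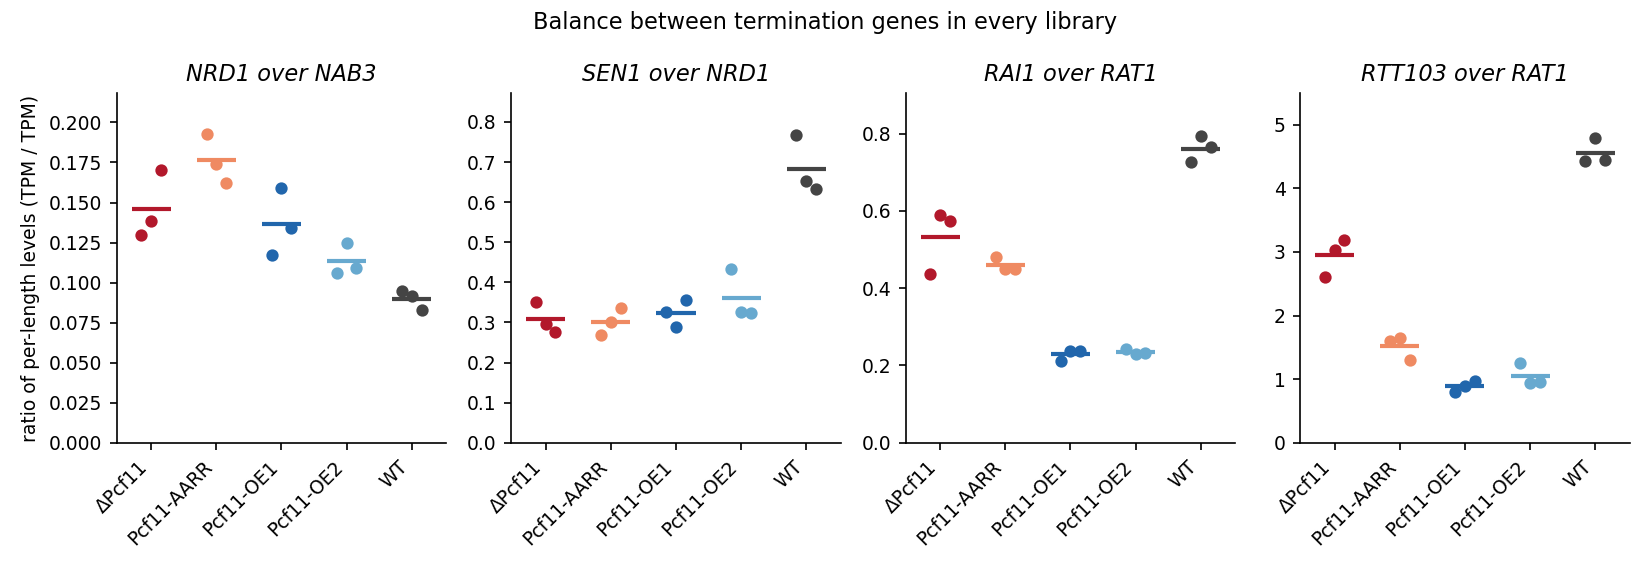
Ratios of per-length levels (TPM over TPM) between members in each library (points) with the mean of each strain (lines), on linear axes from 0. SEN1 over NRD1 lies between 0.268 and 0.433 in the altered strains and between 0.632 and 0.767 in WT, and RTT103 over RAT1 is lowest in Pcf11-OE1.

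The features whose levels over the 15 libraries were most like each member, by the correlation of log2 CPM, are given as a description. The libraries fall into strains and share WT, so the 15 points are not independent. For NRD1 they were CBP2 (r = 0.984), IMG1 (0.982) and MRPL3 (0.98), which act in mitochondrial splicing and mitochondrial ribosomes. For RAT1 they were RAD54 (r = 0.987), a recombination gene, WTM2 (0.985) and MAG2 (0.98). For NAB3 they were MET8 (r = 0.977), RCF2 (0.977) and PRY3 (0.972), and for SEN1 GRH1 (r = 0.975), ARG81 (0.959) and NAR1 (0.959). For RTT103 they were CAP1 (r = 0.982), DOS2 (0.978) and RGA2 (0.973). RAI1 had the least close matches, CCZ1 (r = 0.911), KIN2 (0.89) and MPS3 (0.89), and MPS3 averaged 233 CPM in Pcf11-AARR, against 109 CPM in WT. The NRD1 feature shares bases with MRPL17, itself a mitochondrial ribosomal gene. Other features overlap 31.4% of CBP2, 24.6% of IMG1 and 12.9% of MRPL3. The part of shared reads in these correlations was not tested.

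The partners that hand transcripts of the Nrd1 pathway to decay are taken next. Beside this and each following list stand the calls of all features against WT, 34.8% higher and 29.1% lower for ΔPcf11, 33.8% and 30.4% for Pcf11-AARR, 36.0% and 32.1% for Pcf11-OE1 and 34.0% and 31.1% for Pcf11-OE2. Of 12 genes for the TRAMP complex, exosome cofactors and cap-binding proteins, 5 were higher and 3 lower for ΔPcf11 against WT, 6 and 3 for Pcf11-AARR, 6 and 2 for Pcf11-OE1 and 5 and 2 for Pcf11-OE2, or 7 to 9 called in a strain where 63.9% to 68.1% of all features were. These counts are not read as setting the list apart. Their median log2 fold change was 0.19, 0.42, 0.29 and 0.09 in these strains, beside 0.07, 0.05, 0.04 and 0.02 for all features. The poly(A) polymerases of TRAMP moved apart. TRF5 averaged 56.6 CPM for ΔPcf11, 72.1 for Pcf11-AARR, 82.2 for Pcf11-OE1 and 61.3 for Pcf11-OE2, against 16.2 CPM in WT, a rise of 3.50-fold to 5.08-fold (edgeR adjusted p of at most 5.64e-06). PAP2, its paralog, averaged 65.4 CPM for ΔPcf11, 59.8 for Pcf11-AARR, 116 for Pcf11-OE1 and 90.9 for Pcf11-OE2, against 238 CPM in WT, with log2 fold changes of -1.86, -1.99, -1.03 and -1.39 (edgeR adjusted p of at most 4.71e-05). MTR4, the helicase of TRAMP, rose 2.41-fold for Pcf11-AARR, 3.21-fold for Pcf11-OE1 and 2.40-fold for Pcf11-OE2. NPL3, an RNA-binding protein of transcribed genes, was lower in ΔPcf11 (-0.81) and Pcf11-AARR (-0.89), and CBC2, of the cap-binding complex, in Pcf11-OE1 (-1.10) and Pcf11-OE2 (-1.11). In this and the following lists, genes are named per strain only from the called genes with the highest and lowest log2 fold changes. A strain left out for a gene is therefore not shown to lack a change.

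Around the Rat1 route, 11 genes of the cleavage and polyadenylation factors gave 4 higher and 3 lower for ΔPcf11 against WT, 5 and 4 for Pcf11-AARR, 4 and 2 for Pcf11-OE1 and 3 and 2 for Pcf11-OE2, beside 63.9%, 64.1%, 68.1% and 65.1% of all features called in either direction. RNA15, an RNA-binding subunit of cleavage factor IA, rose 1.61-fold in ΔPcf11, 1.61-fold in Pcf11-AARR and 2.07-fold in Pcf11-OE2, and RIM8 overlaps 39.5% of it. PTA1, a scaffold of the cleavage and polyadenylation factor, averaged 64.8 CPM in Pcf11-OE2 and 148 CPM in Pcf11-OE1, and was the gene of the list called between these strains (log2 -1.19, Pcf11-OE2 minus Pcf11-OE1, edgeR adjusted p = 2.82e-04). REF2, which links the phosphatase module to RNA, averaged 23.2 CPM in Pcf11-AARR, 35.8 CPM in Pcf11-OE1 and 36.3 CPM in Pcf11-OE2, all called lower than WT at 61.6 CPM. It averaged 66.9 CPM in the libraries labelled ΔPcf11, and other features overlap 42.8% of it. The medians of this list were 0.12, -0.11, 0.15 and 0.12. Of 6 kinases, phosphatases and an isomerase of the polymerase tail, 2 were higher and 1 lower for ΔPcf11, 3 and 0 for Pcf11-AARR, 3 and 1 for Pcf11-OE1 and 3 and 1 for Pcf11-OE2, beside the same shares of all features. FCP1, a tail phosphatase, rose 1.56-fold for Pcf11-AARR, 1.94-fold for Pcf11-OE1 and 1.68-fold for Pcf11-OE2. RTR1 rose 2.70-fold in ΔPcf11 and 1.41-fold in Pcf11-AARR. CTK1 rose 2.11-fold in ΔPcf11 but was lower in Pcf11-OE1 (-0.60) and Pcf11-OE2 (-0.54). ESS1 was lower in ΔPcf11 (-0.43) and higher in Pcf11-OE1 (0.78) and Pcf11-OE2 (0.79). Other features overlap 31.9% of CTK1 and 33.3% of ESS1. The medians were 0.13, 0.28, 0.31 and 0.17. Of 4 paralogs or counterparts of members (XRN1, DXO1, NAM7 and HCS1), 3 were higher and 1 lower for ΔPcf11, 2 and 1 for Pcf11-AARR, 2 and 0 for Pcf11-OE1 and 2 and 0 for Pcf11-OE2, with medians of 0.43, 0.29, 0.54 and 0.46. With so few genes, none of these counts is read against the shares of all features. With the replicate block in the fit of all strains NAM7 was no longer called lower in Pcf11-AARR (-0.25, edgeR adjusted p = 0.0525). XRN1, the cytoplasmic counterpart of RAT1, averaged 137 CPM for Pcf11-AARR, 212 for Pcf11-OE1 and 201 for Pcf11-OE2, against 106 CPM in WT, all called higher. It was called higher in ΔPcf11 as well. DXO1, related to RAI1, rose 1.41-fold to 1.83-fold over the 4 strains.

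Genes known for attenuation by the Nrd1 pathway, 8 with NRD1 itself, held calls in both directions in each strain. Against WT, 2 were higher and 5 lower for ΔPcf11, 2 and 4 for Pcf11-AARR, 1 and 3 for Pcf11-OE1 and 1 and 4 for Pcf11-OE2, with medians of -0.40, -0.25, -0.22 and -0.29. All features had 34.8% higher and 29.1% lower for ΔPcf11, 33.8% and 30.4% for Pcf11-AARR, 36.0% and 32.1% for Pcf11-OE1 and 34.0% and 31.1% for Pcf11-OE2, with medians of 0.07, 0.05, 0.04 and 0.02. URA8, of pyrimidine nucleotide synthesis, named after its values were seen, was not called in Pcf11-AARR (0.30, edgeR adjusted p = 0.0799), but was called higher with the replicate block in a fit of Pcf11-AARR and WT (0.27, edgeR adjusted p = 0.03). In both overexpression strains the gene of this list that rose was NRD1. URA2, of pyrimidine synthesis, averaged 59.6 CPM for ΔPcf11, 51.8 for Pcf11-AARR, 67.1 for Pcf11-OE1 and 61.1 for Pcf11-OE2, against 188 CPM in WT, and its WT libraries spread by an SD of 52.3 CPM. FKS2, a glucan synthase gene listed as GSC2, had log2 fold changes of -0.93, -1.33, -0.69 and -0.51 in the same order of strains (edgeR adjusted p of at most 0.00141). RPB10, a polymerase subunit gene that rose 2.87-fold in ΔPcf11 and 2.22-fold in Pcf11-AARR, shares 76.0% of its bases with MGM1.

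Genes whose annotated feature begins within 1000 bases downstream of a small nucleolar RNA on the same strand, a place where reading through is known in mutants of the complex, numbered 29. Against WT, 12 were higher and 8 lower for ΔPcf11, 10 and 8 for Pcf11-AARR, 11 and 11 for Pcf11-OE1 and 9 and 12 for Pcf11-OE2, with medians of 0.14, -0.09, 0.04 and -0.06. All features had 34.8% higher and 29.1% lower for ΔPcf11, 33.8% and 30.4% for Pcf11-AARR, 36.0% and 32.1% for Pcf11-OE1 and 34.0% and 31.1% for Pcf11-OE2, so these counts are near the background. With the replicate block in a fit of Pcf11-AARR and WT, 10 were higher and 11 lower there. BUD22 follows 4 small nucleolar RNAs within the limit of 1000 bases (snR72, snR73, snR74 and snR75). It had the highest log2 fold change of the called genes of the list in each strain. ERG5 overlaps 20.6% of it. It averaged 227 ± 60.4 CPM for ΔPcf11, 223 ± 12.7 for Pcf11-AARR, 287 ± 73.7 for Pcf11-OE1 and 253 ± 63.4 for Pcf11-OE2, against 65.4 ± 7.79 CPM in WT (SD, n = 3 each), a rise of 3.41-fold to 4.39-fold (edgeR adjusted p of at most 1.08e-05). ASN1, an asparagine synthetase gene, had the lowest log2 fold change of the called genes of the list in both overexpression strains, at -1.87 in Pcf11-OE1 and -1.18 in Pcf11-OE2.

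The log2 fold changes in the authors' deposited table, WT over each altered strain, gave the same side of an FDR of 0.05 as the values here for all 24 pairs of a member and a strain. For RAT1 the authors' deposited table lists -0.48 for WT over ΔPcf11, -1.15 for WT over Pcf11-AARR, -1.78 for WT over Pcf11-OE1 and -1.64 for WT over Pcf11-OE2, where a negative value is a higher level in the altered strain.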

How the data were processed

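Raw counts per annotated feature were deposited by the authors for 15 RNA-seq libraries in 2 tables, and the values of the 3 WT libraries are the same in both. Reads were trimmed with fastp 0.23.0, per the submitters' processing notes, and the library kit keeps the strand, per the labels' protocols. Aligner, counter and strand setting: not given in the sources used here. Each counted feature holds the coding sequence and 427 to 494 bases after the stop codon of the members, and none before the start codon. Count totals were 1.25 to 1.30 times the mapped reads of 9 libraries. Reads were thus counted more than 1 time, on overlapping features or otherwise, which was not tested, and levels of overlapping features are uncertain. The 454 rows that name no gene (0.872% to 1.38% of the counts) were left out, and 2 names that had become dates were restored.

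The tables were joined, and edgeR 4.0.16 in R 4.3.3 (TMM, the filterByExpr filter, the quasi-likelihood test with robust dispersions, Benjamini-Hochberg adjustment over 6147 features, threshold 0.05) was fitted once to all 15 libraries, with a biological coefficient of variation of 0.145. A level per length (TPM) was computed from the counts and the deposited feature length. The fit was run on simulated counts with few genes changed, in a single strain. This does not check the scaling in the comparisons with WT, where most features were called. DESeq2 1.42.0, other scalings, filters, fits and left-out libraries were alternatives. Members, lists and tests were chosen with earlier results of these data known. The genes named are the members, PCF11, up to 4 called genes of each list with the highest and lowest log2 fold changes, the 3 features most like each member, and features that overlap a member. The labels state no pairing of replicate numbers. For Pcf11-AARR and WT all 3 same-numbered pairs had correlations of deviations above 0.1 (0.147 to 0.23), against -0.166 to 0.003 between other numbers. In the other 9 comparisons this did not hold, and unlike numbers reached 0.675 between Pcf11-OE1 and Pcf11-OE2. Whether replicates of Pcf11-AARR and WT were paired was not tested. A fit of Pcf11-AARR and WT with the replicate block was added after seeing the data. Sequences were read from the RefSeq genome of assembly R64, whose chromosome accessions stand in the deposited tables. Motif matches are letters on 1 strand and show no binding.

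The log2 fold changes, p-values and FDR that the authors deposited come from a test that is not named. The authors called CLIP peaks separately in the first and second IP, each set against an input; the peak height is a deposited signal, the highest read depth in a peak, and reads per peak are deposited counts. FPKM of the inputs and their sense and antisense counts were made by the authors per the file headers. Mapped percent values and the percent of reads in 5' untranslated regions were deposited by the authors for 9 libraries. Peaks were assigned to a member where they share at least 1 base. Replicates are biological per the labels.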

Additional observations from a re-analysis of the deposited data

How the results depend on the processing

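The direction of every called member against WT was kept under relative log expression scaling, library totals, no filter, DESeq2, a fit per count table, only the 2 strains in the fit, the replicate block (also with only Pcf11-AARR and WT in the fit, an alternative chosen after seeing the data, where all 6 members were called) and each left-out library. Of 402 values of the members under these alternatives other than left-out libraries, 6 lost and 10 gained a call, and of 360 with a library left out, 6 lost and 1 gained one. The number of members called in Pcf11-AARR against WT fell to 3 with library totals alone, and that of sense peaks in the first IP to 1 where at least 50% of the peak had to lie in the member. No other count of members, of peaks or of genes called in either direction moved by over 1.5 times. Counts in 1 direction moved further. With library totals Pcf11-AARR against WT had 3282 higher and 1024 lower, where TMM gave 2076 and 1866, and Pcf11-AARR against ΔPcf11 had 2150 and 681, where TMM gave 1156 and 1342. Lower calls against WT were then 1269 in Pcf11-OE1 and 1271 in Pcf11-OE2, where TMM gave 1974 and 1910. Higher calls in Pcf11-OE2 against Pcf11-OE1 numbered 43 with DESeq2 and 5 with only these strains in the fit, where the joined edgeR fit gave 16. The cause was not tested.

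Values that changed sign were uncalled on both sides. RAI1 in ΔPcf11 against WT was -0.01 with relative log expression and with DESeq2, -0.05 in a fit for each count table and -0.03 with only the 2 strains, and -0.03 to 0.11 with a library left out. RTT103 there was 0.04 with library totals. SEN1 in Pcf11-OE1 against WT was -0.01 with relative log expression and DESeq2, and -0.01 to 0.13 with a library left out. RAI1 in Pcf11-OE2 was 0.22 against WT and 0.07 against ΔPcf11 with library totals, and -0.17 to 0.04 and -0.16 to 0.02 with a library left out. NAB3 in Pcf11-AARR against ΔPcf11 was 0.21 with library totals and 0.01 with a fit for each table or only the 2 strains, and -0.11 to 0.05 with a library left out. NRD1 in Pcf11-OE2 against Pcf11-OE1 ran from -0.15 to 0.04 and RAI1 in Pcf11-OE1 against ΔPcf11 from -0.05 to 0.09 with a library left out.

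Library totals moved the median of all features against WT to 0.20 for ΔPcf11, 0.41 for Pcf11-AARR, 0.34 for Pcf11-OE1 and 0.28 for Pcf11-OE2, and the share of higher calls to 64.6%, 76.2%, 70.7% and 69.4%, where TMM gave 54.5%, 52.7%, 52.9% and 52.3%. Against ΔPcf11 the share was 75.9% for Pcf11-AARR, 63.9% for Pcf11-OE1 and 61.5% for Pcf11-OE2, where TMM gave 46.3%, 51.8% and 50.3%, and against Pcf11-AARR it was 37.7% for Pcf11-OE2, where TMM gave 51.4%. For Pcf11-OE2 against Pcf11-OE1 that share was 16.8%, and 31.4% with DESeq2. With the replicate block, NRD1 in Pcf11-AARR against ΔPcf11 was called (0.26, edgeR adjusted p = 0.0495), which made 4 members called there; no other member call changed, in the pair of Pcf11-AARR and WT either. Counts of 3 libraries per strain, reads that overlapping features may share and CLIP peaks of few reads limit these results.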
